A study of Mus musculus with 6 samples.

Results

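Pomgnt2, 6 further genes of dystroglycan and its glycosylation, and Gask1a, the gene beside Pomgnt2, were followed in the epididymal fat pad (eWAT), a visceral white fat depot, of transgenic (Tg) and wild-type (WT) mice. The 8 genes are Pomgnt2, Gask1a, Pomgnt1, Pomt1, Pomt2, Pomk, B3galnt2 and Dag1, out of 22180 genes with a row of their own on the array. Each was read from the row whose annotation names that gene alone, and each of the 8 has 1 such row. The set was chosen by the Tg minus WT difference of Pomgnt2 in these same arrays, with Gask1a taken as its genomic neighbour and the others as its pathway. The values of the 8 genes in that comparison are therefore a description and were not tested. The question set for them was whether the other enzymes of the pathway follow Pomgnt2, or only the gene beside it.

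Both groups were male C57BL/6 mice of 8 months fed a high-fat diet for 21 weeks. The WT group (WT 1 to WT 3) and the Tg group (Tg 1 to Tg 3), labelled as adipose-specific transgenic for the long noncoding RNA Blnc1, have 3 arrays each, called biological replicates in the labels. The promoter of the transgene and the number of transgenic lines are not given in the sources used here, and 0 rows of the array name Blnc1, so the genotype labels were not checked. Values are log2 signals normalized between arrays by the authors and are listed in the order of the replicate numbers. Differences are Tg minus WT in log2 units, each with its standard error (SE) from limma, a linear model fitted over all rows.

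Dystroglycan, the product of Dag1, links the basement membrane outside a cell to dystrophin or utrophin inside it. Its outer subunit binds laminins through matriglycan, a long sugar chain that is built on a mannose attached to the protein. POMT1 and POMT2 together attach that mannose in the endoplasmic reticulum, POMGNT2 and then B3GALNT2 extend it there, and the kinase POMK phosphorylates it, which readies the chain for the later enzymes in the Golgi. POMGNT1 acts on O-linked mannose too and starts a different branch of the pathway. Loss of these enzymes in people causes muscular dystrophies with brain and eye involvement, known as dystroglycanopathies. Gask1a, formerly Fam198a, encodes a Golgi-associated protein of a family related to secretory kinases, and it is not a known member of the pathway.

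Pomgnt2 and Gask1a are immediate neighbours. In the RefSeq annotation of GRCm38.p6 they are read from opposite strands toward each other, and their annotated spans overlap at the 3′ ends. The deposited table names no genome build and does not say which part of a gene each row reads, so whether either row covers the shared stretch is not known here. The 250 bases before each start site, from RefSeq on GRCm38.p6, are shown because these were the 2 genes of the 8 that stood apart between the genotypes. For Pomgnt2 the window is chr9:121996027-121996276 on the minus strand, and for Gask1a, at the first of its 2 listed starts, chr9:121950738-121950987 on the plus strand. Capitals mark the matches to the motifs named after the sequences.

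Pomgnt2: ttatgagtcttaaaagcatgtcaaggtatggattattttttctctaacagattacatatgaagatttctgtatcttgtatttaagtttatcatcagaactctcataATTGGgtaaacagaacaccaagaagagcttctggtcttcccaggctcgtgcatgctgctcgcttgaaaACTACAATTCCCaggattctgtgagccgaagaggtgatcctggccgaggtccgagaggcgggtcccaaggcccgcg

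Gask1a: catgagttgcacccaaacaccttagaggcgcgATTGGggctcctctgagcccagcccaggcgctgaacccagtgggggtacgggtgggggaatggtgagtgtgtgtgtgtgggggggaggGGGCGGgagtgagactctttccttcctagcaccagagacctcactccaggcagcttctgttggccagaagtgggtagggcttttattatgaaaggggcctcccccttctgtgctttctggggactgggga

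Promoter windows were found for 6 of the 8 genes. They were searched on both strands for the E-box CACGTG, the box named by its letters CCAAT, the GC box with letters GGGCGG, and the TATA box in the form of the letters TATAAA. ACTACAATTCCC, the core of the ZNF143 site, was added after it was seen in the Pomgnt2 window. That window held the ZNF143 core, starting 76 bases before the start site, and a CCAAT box on the reverse strand starting at 144 bases. The ZNF143 core was present in 0.253% of the 32817 windows of this length. The Gask1a window held a reverse CCAAT box and a GC box, letters found in 33.8% and 32.7% of windows. The 2 windows shared the CCAAT box among the motifs searched, and they differed in base composition, with 44.4% G and C for Pomgnt2 and 60.4% for Gask1a. No 2 of the printed matches overlap. A match is a description of the letters and not a measured site.

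Pomgnt2 (row 17532413) was much higher in Tg fat. The WT arrays read 4.61, 4.09 and 4.03, the Tg arrays 7.25, 6.92 and 8.57. Every Tg array lay above every WT array, and the gap between the nearest 2 was 2.31. The difference was 3.34 ± 0.43 (SE, n = 3 per group), a 10.1-fold change with a 95% interval of the fit from 4.95 to 20.7. This was the second largest upward difference of all 22180 genes. The largest was that of Gpx5, an epididymal gene, which rested on Tg 2 at 10.8 while Tg 3 read 0.97 and Tg 1 3.22. Pomgnt2 was high in all 3 Tg arrays. Its spread was wider there, with an SD of 0.87 against 0.32 in WT, and Tg 3 lay 1.32 above the next Tg array.

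Gask1a (row 17523387) followed in the same direction by a smaller amount. The WT arrays read 3.76, 3.93 and 3.49, the Tg arrays 4.76, 4.89 and 5.92. The groups did not overlap, with a gap of 0.83. The difference was 1.47 ± 0.32 (SE, n = 3 per group), or 2.76-fold with a 95% interval from 1.63 to 4.69, the 27th largest upward difference. Tg 3 was again the highest, 1.04 above the next array. Relative to the WT mean, Tg 1, Tg 2 and Tg 3 stood 3.01, 2.68 and 4.33 higher in Pomgnt2 and 1.04, 1.16 and 2.20 higher in Gask1a. Without Tg 3 the differences were 2.84 for Pomgnt2 and 1.10 for Gask1a.

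Groups apart are common in these data. They did not overlap in 2 of the 8 genes, both higher in Tg, against 18.2% of all genes in either direction and 8.85% with Tg higher. Because the comparison chose Pomgnt2, nothing is read from that count. Of all genes, 0.365% were higher in Tg by 1 log2 unit or more, Pomgnt2 and Gask1a among them. The set was chosen by the size of the Pomgnt2 difference, so nothing is read from that share either. Limma called 0 of 41345 rows (0%) at an adjusted p of 0.05, with 4263 rows at an unadjusted p under 0.05. The smallest adjusted p over all rows was 0.196.

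**Figure D1:**
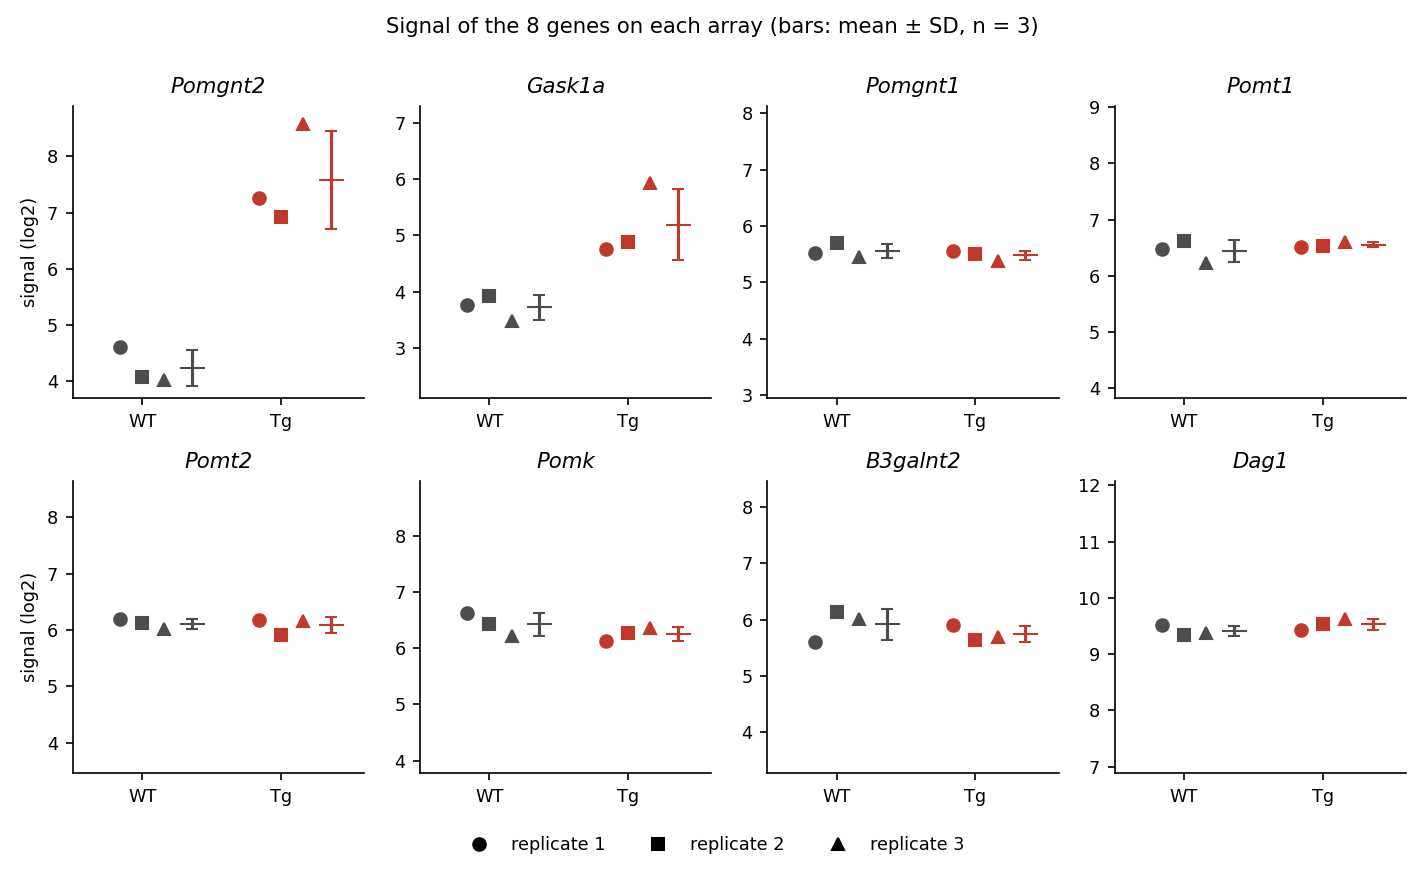
Signal (log2) of the 8 genes on each of the 6 arrays, WT in grey and Tg in red, with a symbol per replicate number and bars for the mean ± SD (n = 3); every panel spans the same number of log2 units. Pomgnt2 and Gask1a are higher in all 3 Tg arrays, with Tg 3 the highest, and in the other 6 genes the groups overlap.

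No other enzyme of the set showed a difference of that size. Pomt1, a subunit of the complex that attaches the first mannose, read 6.47, 6.62 and 6.23 in WT and 6.51, 6.54 and 6.60 in Tg, a difference of 0.11 ± 0.12. Pomt2, the other subunit, read 6.19, 6.12 and 6.02 in WT and 6.17, 5.92 and 6.17 in Tg. Its difference of -0.02 ± 0.12 was smaller than the SE and changed sign in 4 of 16 alternative settings, among them median centring and cyclic loess. In both genes the WT and Tg arrays were interleaved.

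B3galnt2, which adds the sugar after that of POMGNT2, read 5.60, 6.14 and 6.00 in WT and 5.91, 5.64 and 5.68 in Tg, a difference of -0.17 ± 0.17. Pomk, the kinase that acts once both sugars are on, read 6.63, 6.43 and 6.22 in WT and 6.13, 6.27 and 6.37 in Tg, a difference of -0.17 ± 0.14. WT 1 was the lowest array of all in B3galnt2 and the highest in Pomk, and the groups overlapped in both.

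Pomgnt1, the enzyme of the other branch, read 5.52, 5.69 and 5.45 in WT and 5.55, 5.50 and 5.38 in Tg, a difference of -0.08 ± 0.11. Dag1, the substrate itself, read 9.52, 9.35 and 9.37 in WT and 9.43, 9.54 and 9.62 in Tg, a difference of 0.12 ± 0.11. The groups overlapped in both, and the whole range of Dag1 over the 6 arrays was 0.28.

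For these 6 genes the 95% intervals of the fit ran from -0.57 at the lowest bound (B3galnt2) to 0.41 at the highest (Pomt1). The lower bounds of Pomgnt2 and Gask1a were 2.31 and 0.70. The estimate for Gask1a, 1.47, lay above the upper bounds of all 6. All 6 intervals hold 0 and leave room for small differences of either sign. Pomgnt2 was chosen for its difference in these arrays, so its interval does not have its stated coverage. The intervals describe the fit and are not used as a test. Tg 3, the array with the highest Pomgnt2, differed from the WT mean by -0.23 to 0.21 in the 6 genes. Leaving out 1 array makes separation easier, and the share of all genes apart is not given here for those settings. The count of genes with groups apart was then 4 of 8 without WT 1, where B3galnt2 was lower (-0.33) and Dag1 higher (0.17) in Tg. It was 3 of 8 without WT 2 (Pomt1 higher, 0.20), without WT 3 (Pomk lower, -0.27) and without Tg 1 (Dag1 higher, 0.17). Without Tg 2 or without Tg 3 it was 2 of 8. Nothing is read from these counts.

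Rows shared between genes were not used for the values above. The row named for Gstz1 and Pomt2 averaged 9.63 in WT and 10.27 in Tg with groups apart, and the row named for Tbce and B3galnt2 read 6.60 and 6.38, also apart. Neither row can be assigned to 1 gene.

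**Figure D2:**
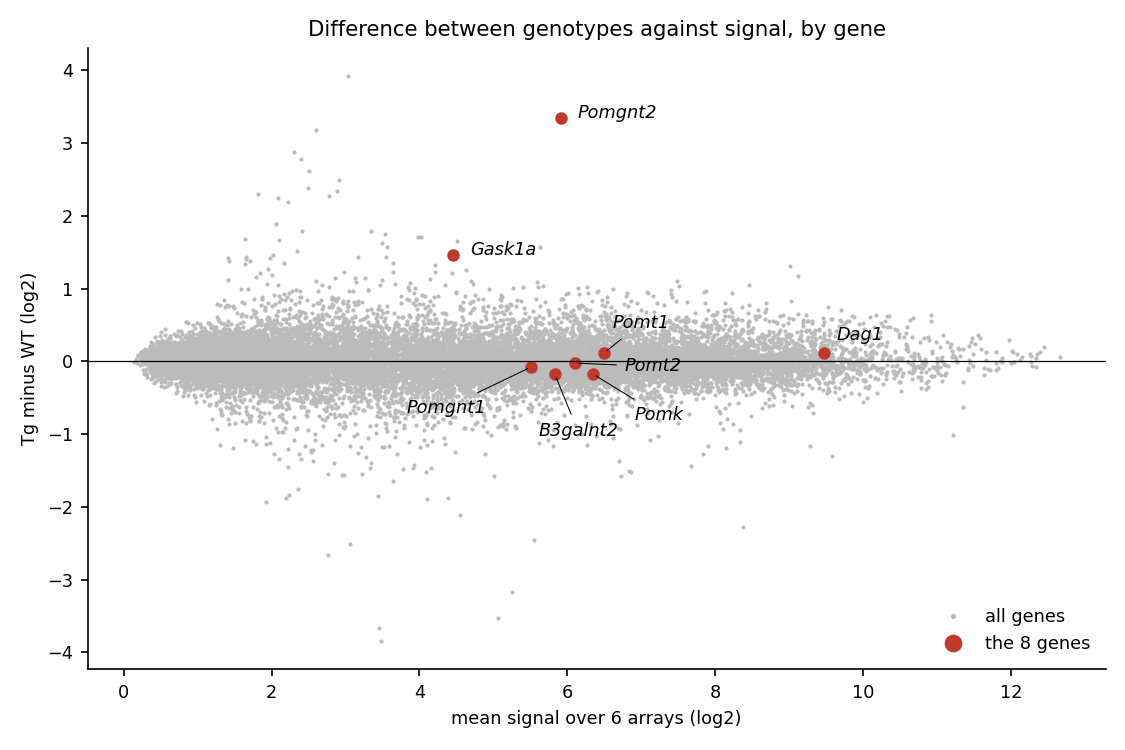
Difference between Tg and WT (log2) against the mean signal over the 6 arrays (log2), a grey point per gene and the 8 genes in red. Pomgnt2 (3.34) has the second and Gask1a (1.47) the 27th largest upward difference, and the other 6 lie within the bulk of the points, between -0.17 and 0.12.

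Next, 17 other genes of the pathway with a row of their own were read as a list. They were 3 enzymes of the chain after POMK, 2 of other O-mannose glycans and 12 of the mannose supply. The pooled counts and median thus rest mostly on the mannose supply. Limma called 0 of the 17, none higher and none lower, with 1 at an unadjusted p under 0.05. Over all 41345 rows it also called 0, with 4263 at an unadjusted p under 0.05. A count of 0 called, here and in the lists below, therefore says nothing about a list. The median difference was 0.02, beside 0.0002 over all genes. As deposited, 10 of the 17 were higher in Tg and 7 lower. Median centring of the arrays, which raised the median of all genes to 0.07, made that 15 and 2.

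Of the enzymes that lengthen the chain after POMK, Rxylt1, which adds xylose, differed by -0.02 ± 0.12, and B4gat1, which primes the chain for matriglycan, by 0.08 ± 0.20. Large2, which can polymerize matriglycan, differed by 0.0006 ± 0.26. Among enzymes of other O-mannose glycans, the branching enzyme gene Mgat5b differed by 0.02 ± 0.10 and the sulfotransferase gene Chst10 by 0.22 ± 0.15. All 5 had overlapping groups.

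POMT1 and POMT2 draw on dolichol-phosphate mannose, and 12 genes of its supply were measured. In 11 of them the groups overlapped, including the synthase genes Dpm1 (-0.03 ± 0.11), Dpm2 (-0.03 ± 0.11) and Dpm3 (0.13 ± 0.13). Dolk, the kinase that makes dolichol phosphate, read 6.64, 6.69 and 6.40 in WT and 7.10, 6.76 and 7.05 in Tg. It was the 1 gene of the 17 with groups apart, beside 18.2% of all genes. Its difference was 0.39 ± 0.14 and did not pass in limma (adjusted p = 0.43).

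Related enzyme families were also read by list. Of 9 other transferases that start O-linked sugars in the secretory pathway, limma called 0, as of all rows, with 1 at an unadjusted p under 0.05. Eogt, a relative of POMGNT2 that attaches N-acetylglucosamine to secreted proteins, read 7.47, 7.57 and 7.27 in WT and 7.62, 7.87 and 7.79 in Tg, a difference of 0.32 ± 0.12 (adjusted p = 0.46 in limma). The fucosyltransferase gene Pofut1 (0.22 ± 0.13) was also apart upward, and the O-mannosyltransferase gene Tmem260 (-0.09 ± 0.09) apart downward, each without passing. That made 3 of 9 with groups apart, beside 18.2% of all genes.

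Of 11 secretory pathway kinases, limma called 0, as of all rows, and 0 had an unadjusted p under 0.05. Gask1b, the paralog of Gask1a, was lower in every Tg array than in any WT array, at 9.05, 9.02 and 9.00 in WT and 8.74, 8.95 and 8.95 in Tg. Its difference was -0.15 ± 0.10 and did not pass (adjusted p = 0.66 in limma). Fam20b, a xylose kinase of proteoglycan synthesis, was apart upward by 0.17 ± 0.09. The 9 others overlapped, which left 2 of 11 with groups apart, beside 18.2% of all genes.

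The partners of dystroglycan showed larger single differences, none past the threshold. Of 27 measured genes, 14 of the dystrophin complex and 13 ligands, limma called 0, as of all rows. At an unadjusted p under 0.05 were 4, all in the complex. Groups were apart in 8 of the 27, 5 higher (beside 8.85% of all genes) and 3 lower (beside 9.39%). The median difference was 0.14, beside 0.0002 over all genes. Marker lists of other cell types differed in level as well. The means of 6 endothelial markers were 8.11 to 8.64 in WT and 8.66 to 8.88 in Tg, and those of 6 smooth muscle markers 6.77 to 8.39 and 6.22 to 7.07. Their part in these differences was not tested.

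Sgcd, a sarcoglycan of the muscle and smooth muscle complex, read 6.48, 6.71 and 6.17 in WT and 7.49, 6.86 and 7.49 in Tg, a difference of 0.83 ± 0.22 (adjusted p = 0.35 in limma). Sntb1, a syntrophin that anchors signalling proteins to dystrophin, read 8.28, 8.12 and 7.82 in WT and 8.71, 8.88 and 8.95 in Tg, a difference of 0.77 ± 0.15 (adjusted p = 0.33). Sspn, the membrane protein sarcospan, was higher by 0.36 ± 0.13 (adjusted p = 0.43). In these 3 genes every Tg array lay above every WT array. Sgcb was apart upward by 0.14 ± 0.09 and the syntrophin gene Sntb2 downward by -0.15 ± 0.10. Sntg1, named after its values were seen, was at an unadjusted p under 0.05 with overlapping groups (-0.60 ± 0.25). Dmd, the dystrophin gene, differed by 0.06 ± 0.13, and Utrn, its widely expressed relative, by 0.37 ± 0.18 with overlapping groups.

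Among the ligands, the agrin gene Agrn was apart upward by 0.22 ± 0.10, and Lama2 (-0.19 ± 0.11), the laminin chain of muscle and nerve, and Slit1 (-0.36 ± 0.15) were apart downward. None passed in limma. The perlecan gene Hspg2 (0.33 ± 0.17) and Lama4 (0.14 ± 0.12), a laminin chain of adipocytes and vessels, had overlapping groups.

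**Figure D3:**
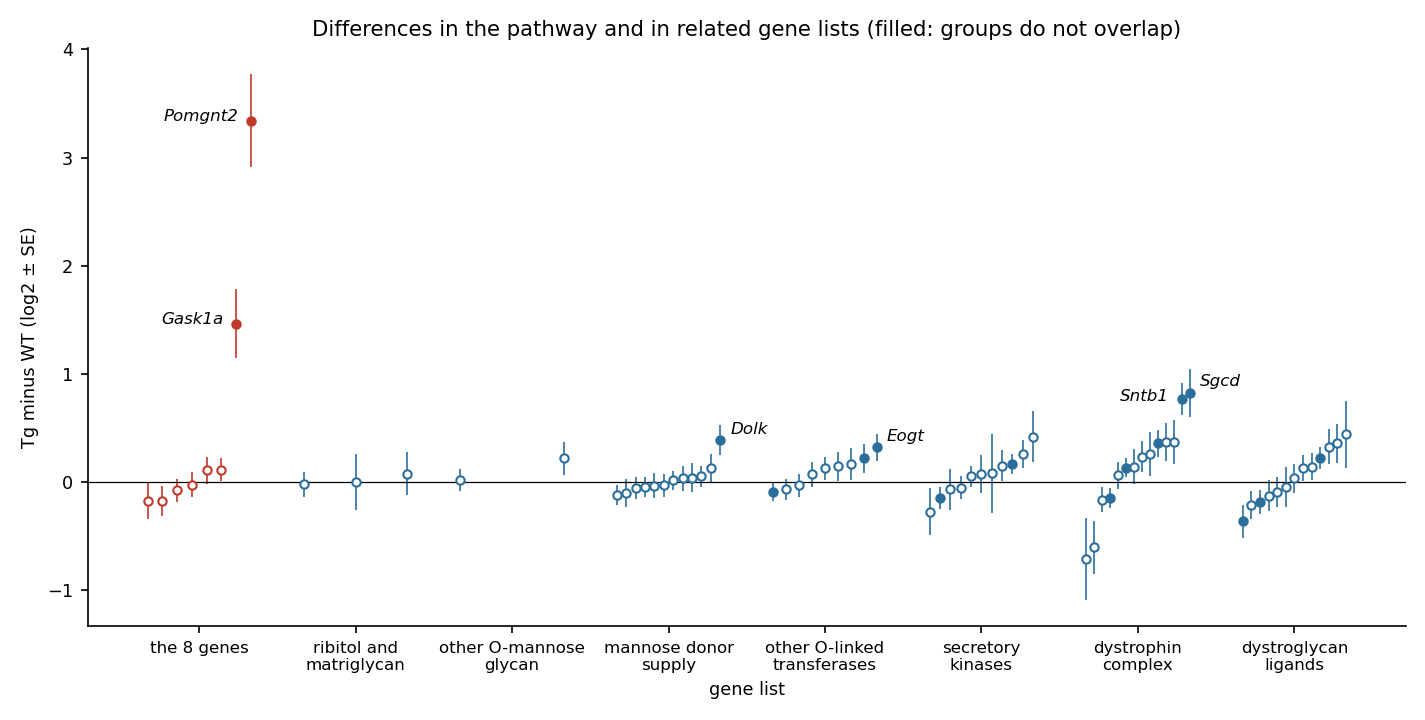
Difference between Tg and WT (log2 ± SE, n = 3 per group) for the 8 genes in red and for the genes of the related lists in blue, ordered by size within each list; filled points have groups that do not overlap. Among the genes shown, Pomgnt2 (3.34) and Gask1a (1.47) have the largest differences, followed by Sgcd (0.83).

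The neighbourhood of Pomgnt2 was then read gene by gene, over the 20 nearest genes with a row on each side in the RefSeq order. Apart from Gask1a, that gave 39 genes. Their differences lay between -0.32 and 0.79 with a median of 0.03, 21 of the 39 being higher in Tg. Limma called 0 of them, as of all rows. At an unadjusted p under 0.05 was 1, the peptide hormone gene Cck, named after its values were seen (0.79 ± 0.31, groups overlapping). The next gene beyond Gask1a, 1700048O20Rik, differed by -0.20 ± 0.14 and overlapped. On the other side of Pomgnt2, 3 genes without a row lie between it and Snrk. Snrk, a kinase of the AMPK family, read 7.66, 7.59 and 7.37 in WT and 7.87, 7.70 and 7.72 in Tg, apart by a difference of 0.22 ± 0.12. Ano10, which follows it, differed by 0.30 ± 0.16 and overlapped.

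The groups were apart in 3 of the 39 genes, Snrk upward and Nktr (-0.18 ± 0.10) and Zfp445 (-0.20 ± 0.10) downward, beside 18.2% of all genes. Leaving out 1 array, which makes separation easier, gave 12 without WT 1, 7 without WT 2 and 6 without WT 3. It gave 9 without Tg 1, 11 without Tg 2 and 6 without Tg 3. The share of all genes apart is not given here for those settings, so nothing is read from these counts. The differences above 1 log2 unit thus covered 2 adjacent genes.

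**Figure D4:**
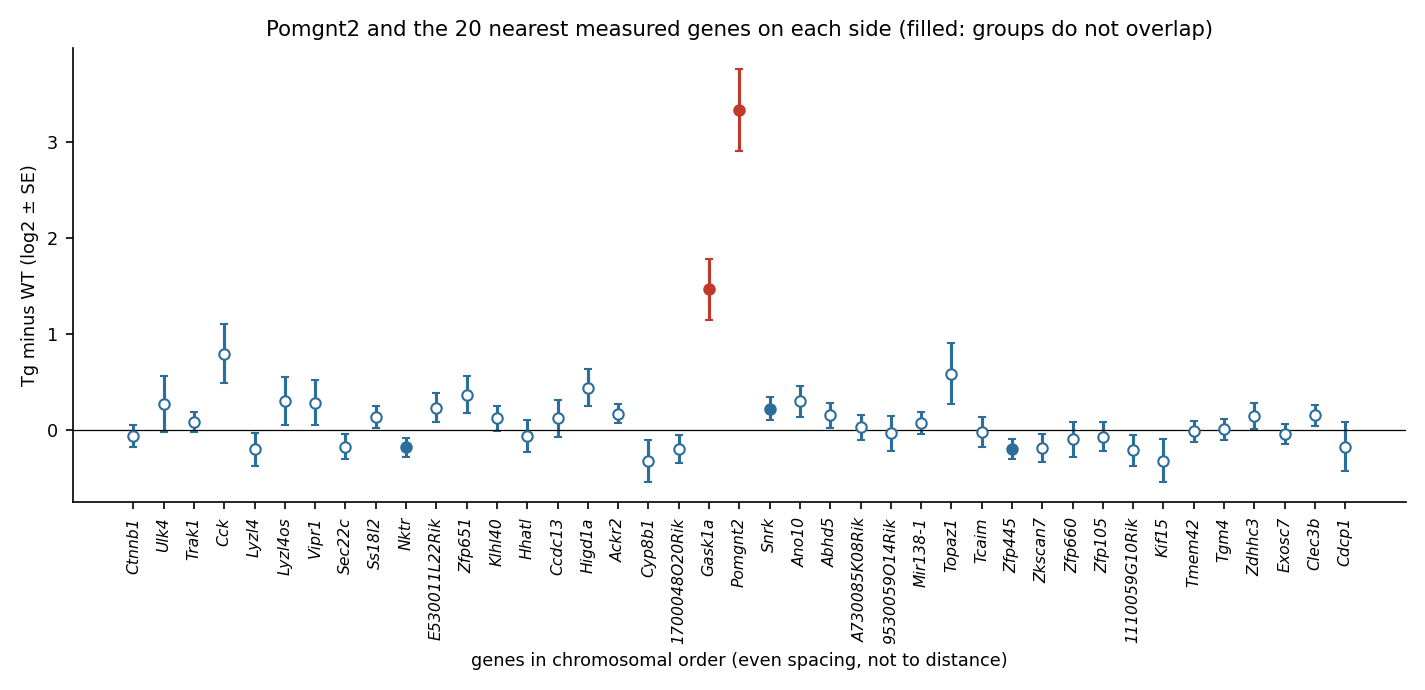
Difference between Tg and WT (log2 ± SE, n = 3 per group) of Pomgnt2, Gask1a and the 39 other measured genes around them, in chromosomal order with even spacing; filled points have groups that do not overlap. Pomgnt2 and Gask1a reach 3.34 and 1.47, and the other points lie between -0.32 and 0.79.

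Among 17401 named genes, those nearest in pattern were found by the root mean square difference of gene-centred log2 values over the 6 arrays, which takes account of size as well as shape. Gask1a was the nearest to Pomgnt2, at 0.98, while seen from Gask1a, at the same distance, Pomgnt2 came 15664th. Trdn, the gene of the muscle calcium-release protein triadin, followed at 1.01, then the acute-phase gene Orm2 at 1.01, Plppr4 at 1.14 and Gas2l2 at 1.15. The Tg minus WT difference of these 5 lay between 1.15 (Plppr4) and 1.57 (Trdn), below the 3.34 of Pomgnt2. For Gask1a the nearest were Plppr4 (0.22), the alcohol dehydrogenase gene Adh4 (0.24), the glycine receptor gene Glrb (0.26), Calr4 (0.29) and Rab9b (0.29). All of these rows were chosen for the resemblance, so their differences carry no test.

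The label of the tissue was checked against markers. All 9 measured white adipocyte markers gave signals, from 7.47 for the dimmest to 12.3 for the brightest mean. All 9 were higher in Tg, 7 with groups apart, beside 8.85% of all genes apart with Tg higher. The mean level of the 9 ran from 9.87 to 10.2 in WT and from 10.3 to 10.5 in Tg. The 6 macrophage markers were lower in Tg, 5 with groups apart, beside 9.39% of all genes apart with Tg lower. Their mean level was 10.1 to 10.2 in WT and 9.82 to 9.87 in Tg. All 6 endothelial markers were higher in Tg, 2 with groups apart, and all 6 smooth muscle markers lower, 2 apart, beside the same shares. The mean of the smooth muscle list was 6.77, 7.59 and 8.39 in WT and 6.71, 7.07 and 6.22 in Tg, so that WT 1 lay within the Tg range and WT 2 and WT 3 above it. WT 2 and WT 3 were also the WT arrays with high Spink8, a male tract gene, at 6.55 and 8.09 against 1.21 in WT 1. The smooth muscle gene Cnn1 read 4.77, 7.09 and 8.46 in the 3 WT arrays and 4.69, 4.17 and 4.07 in Tg. Tg 2 had the highest mean of the epididymis and male tract markers, 5.51. In Tg 2 the smooth muscle markers Cnn1, Myh11, Des and Tagln lay below every WT array, and Acta2 lay within the WT range. Actg2 was the highest of all 6 arrays in Tg 2, at 7.62. Whether tract tissue has a part in the smooth muscle difference was not tested. In such bulk samples fewer cells of a type and less RNA per cell cannot be told apart. The part of the marker shifts in the results above was not tested.

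Skeletal muscle, where the pathway is best known, left little signal. The mean of its 10 markers was 2.55 to 2.75 in WT and 2.66 to 2.80 in Tg, with Acta1 at 7.49 to 7.99 in WT and 7.92 to 8.55 in Tg, Actn3 at 3.74 to 4.11 and 3.83 to 4.39, and the other 8 lower on average. Markers of epididymis and male tract stood at 1.18 to 1.86 in WT but at 5.51 in Tg 2, against 1.19 and 1.44 in the other Tg arrays. Spink8, a gene of that list, was at 6.55 in WT 2 and 8.09 in WT 3, against 1.21 in WT 1. Tg 1 was not free of such signal, with the epididymal gene Gpx5 at 3.22 and Adam7 at 2.44, against 0.95 and 1.37 in WT 1. With WT 2, WT 3 and Tg 2 left out, the other 3 arrays gave differences of 3.30 for Pomgnt2 and 1.59 for Gask1a. Over all arrays they were 3.34 and 1.47. The smaller set holds 1 WT array and therefore has no test. The small differences of the other genes were less steady in WT 1, Tg 1 and Tg 3. B3galnt2 turned from -0.17 to 0.19, Pomk went from -0.17 to -0.38 and Dag1 from 0.12 to 0.0008. Pomt1 (0.09), Pomt2 (-0.02) and Pomgnt1 (-0.06) kept their direction. Schwann cell and mesothelial markers overlapped between the groups, at 4.31 to 4.48 and 4.97 to 5.43 in WT and 4.32 to 4.54 and 5.15 to 5.39 in Tg.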

How the data were processed

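Total RNA of eWAT from 6 mice was hybridised to Affymetrix arrays, per the labels. The authors deposited 1 log2 value per array and row. RMA and limma are named without versions, per the submitters' processing notes; the settings and the build are not given in the sources used here. RMA compresses differences between low signals, detection calls were not used here, and the number of arrays limits the precision. Of 41345 rows, 23521 named 1 gene, 1814 several and 16010 none; array medians were 2.64 to 2.75.

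Tg was compared with WT over all rows by linear models in limma 3.58.1 (R 4.3.3; lmFit, eBayes; 2-sided, no covariate, Benjamini-Hochberg adjustment, threshold 0.05). A gene with several rows was read from the brightest on average. Neighbours and promoter letters came from RefSeq tables of GRCm38.p6. The fit was tested on simulated data. The replicate numbers did not pair the arrays.

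The genes and lists were chosen with earlier results of these data known. Named beyond the 8 genes were, per list, up to 3 genes each way with groups apart, the 2 nearest neighbours each side of Pomgnt2, neighbours with groups apart, and the 5 genes nearest in pattern to Pomgnt2 and to Gask1a; others were named for their role after their values were seen. Alternatives left out arrays and changed the scaling, filter, rows, variance model and weights.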

Additional observations from a re-analysis of the deposited data

How the results depend on the processing

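The differences of Pomgnt2 and Gask1a kept their direction in all 16 alternatives, from 2.84 to 3.67 and from 1.10 to 1.68, both extremes from leaving out 1 array. Limma called 0 rows in each of the 15 alternatives tested over all rows, and therefore 0 genes of the pathway, partner and neighbour lists. The median of the 17 pathway genes, 0.0171, became 0.0822 with median centring of the arrays, which shifted all genes by 0.07. It became 0.0581 without WT 2, WT 3 and Tg 2, and -0.02 to 0.05 with 1 array left out. WT 2, WT 3 and Tg 2, called the tract arrays below, had the highest means of the tract markers. In WT 2 and WT 3 those means rest largely on Spink8 (6.55 and 8.09), the next brightest marker reading 2.69 and 1.81. Tg 1, which was kept, read 2.44 in the tract marker Adam7. Genes of the 8 with groups apart numbered 2 to 4 with 1 array left out and 6 without the tract arrays. Without the tract arrays, 1 WT array is set against 2 Tg arrays, and groups so small come apart easily. The share of all genes apart is not given here for these settings, so nothing is read from the counts of the 8. Neighbours with groups apart, 3 as deposited, numbered 5 with median centring, 5 with quantile normalization, 5 with cyclic loess, 6 to 12 with 1 array left out and 27 without the tract arrays, where 1 WT array separates from 2 Tg arrays easily.

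With the replicate block, limma again called 0 rows, with 4034 at an unadjusted p under 0.05, and the difference of Pomgnt2 was 3.34 ± 0.42. The arrays share only a number: deviations of same-numbered arrays correlated at -0.04, 0.01 and -0.04 over 41345 rows, so the block is no pairing. Of the list genes given with values, Mgat5b, Chst10, Sntg1, Large2 and Dpm3 had a mean signal below every array median, and their differences may be understated.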
